A study of Homo sapiens with 6 samples.

Results

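The genes described here are 46 interferon-stimulated genes and JAK-STAT regulators, out of 28563 genes in the deposited expression table. They were chosen as a list of 47 names, of which DDX58 and RIGI are the older and the current name of the same gene, and all 46 were found. The study asked which genes respond to polydatin (PD), a glucoside of the plant compound resveratrol, in cells labelled HepG2, an established line that grew from a human liver cancer. Poly(A) RNA was sequenced from 3 dishes treated with PD for 24 h and from 3 dishes that received the solvent DMSO alone for the same time, with 1 library per dish, and the labels name no genetic change in either group. The sample labels put the dose at 336 µM, and the dose in the methods of the paper is lower. All 6 libraries come from the same line, so the p-values below measure the spread between dishes only.

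The library totals behind the FPKM were 16763318 to 17274927 fragments for DMSO and 16308476 to 18071632 for PD. The label of the cells was checked against 20 hepatocyte and HepG2 markers, of which 11, with ALB and AFP among them, were not analysed here. Among the others, RBP4 (0.391 FPKM in DMSO, 1.30 in PD) and CPS1 (225 and 109 FPKM) passed the filter used below, while APOA1, TF, FGA, FGG, SERPINA1 and HNF4A stayed under 0.5 FPKM in all 6. Of the 4 epithelial markers, the keratin gene KRT8 rose from 50.1 to 68.9 FPKM (adjusted p 0.00011, limma), KRT18 had 46.5 and 47.7 FPKM and EPCAM 1.17 and 1.03 FPKM, and CDH1 was under the filter at 0.127 and 0.0343 FPKM (voom log2 fold change -1.76, adjusted p 0.0016). The name HepG2 is therefore used only as the labels give it. None of the 4 leukocyte markers analysed of 7 listed reached 1 FPKM, and their summed level was 0.548 to 0.835 FPKM in DMSO and 0.617 to 0.77 FPKM in PD. The summed level of the 4 fibroblast markers analysed of 5 listed was 4.4 to 5.29 FPKM in DMSO and 4.75 to 5.05 FPKM in PD, and COL1A1 and PDGFRB reached 1 FPKM. The 3 endothelial markers analysed of 4 listed summed to at most 0.0681 FPKM in any library. The part of these markers in the results below was not tested.

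Interferons are signal proteins that cells release on viral infection. Type I interferons bind the receptor chains IFNAR1 and IFNAR2, and the type II interferon binds IFNGR1 and IFNGR2. The receptors activate the kinases JAK1, JAK2 and TYK2, which phosphorylate STAT proteins, and STAT2 enters the nucleus in a complex with IRF9. That complex binds the interferon-stimulated response element (ISRE) of genes for antiviral proteins, while STAT dimers bind a different element, the gamma-activated site (GAS). SOCS proteins are made in response to the signal and shut it off, and the RNA sensors RIGI and IFIH1 start the production of interferons in infected cells.

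In PD the module did not move in one direction, and members of the same protein family differed in direction. Levels are in FPKM, the fragments on a gene per kilobase of its length and relative to the library total, so they can be compared between genes, and a value after ± is the SD over n = 3 libraries. A test was run with limma on log2(FPKM + 1) for genes whose mean over the 6 libraries reached 0.5 FPKM, and p-values were adjusted over the 14400 genes that passed. Of the 46 members 39 were tested, and 23 of them (59%) passed an adjusted p of 0.05 in limma, 13 higher and 10 lower in PD. Over all tested genes the share was 58.1%, with 31.9% higher and 26.2% lower, so the count of changed members was close to the background. Without PD replicate 3, 6 members instead of 10 were called as lower, and IFNAR2, IFIH1, IFIT5 and IFITM3 lost the call. With limma voom on fragments, 15 of 41 tested members were higher and 10 lower, beside 62.7% of all genes tested that way. For members and for all tested genes alike, the median of the log2 fold change was 0.01. The median size of the change, regardless of direction, was 0.19 in the members and 0.27 in all tested genes on the same log2 scale. The groups did not overlap in 26 tested members (66.7%), and in 65.4% of all tested genes.

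On the FPKM + 1 scale, at least a 1.5-fold change was seen in 8 members, with TYK2, STAT2, IRF7, SOCS1, ISG15, IFI6 and IFI35 higher and IRF1 lower. This threshold with the adjusted p was passed by 16.2% of all tested genes. At 2-fold on the FPKM + 1 scale, 3 members (7.69%) were called (SOCS1, IRF7 and IFI6), all of them higher. Over all tested genes the share was 3.61% (2.04% higher and 1.57% lower). With voom on fragments, 4 of 41 members (9.76%) were called at 2-fold, beside 11.5% of all genes tested that way. The members were thus not above the background on that scale. The study also used 2-fold for a DEG, but on fold changes from DESeq2, so its counts are not comparable with these shares. The fold changes were computed on FPKM + 1, so that the change of a gene near or under 1 FPKM comes out too small. IFIT2 (1.75 FPKM in DMSO, 2.86 in PD) and RIGI (1.81 and 1.12 FPKM) fell short of 1.5-fold on this scale for that reason. Their log2 fold changes were 0.50 and -0.40 there, and 0.73 and -0.67 with voom on fragments, which is past 1.5-fold.

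**Figure D1:**
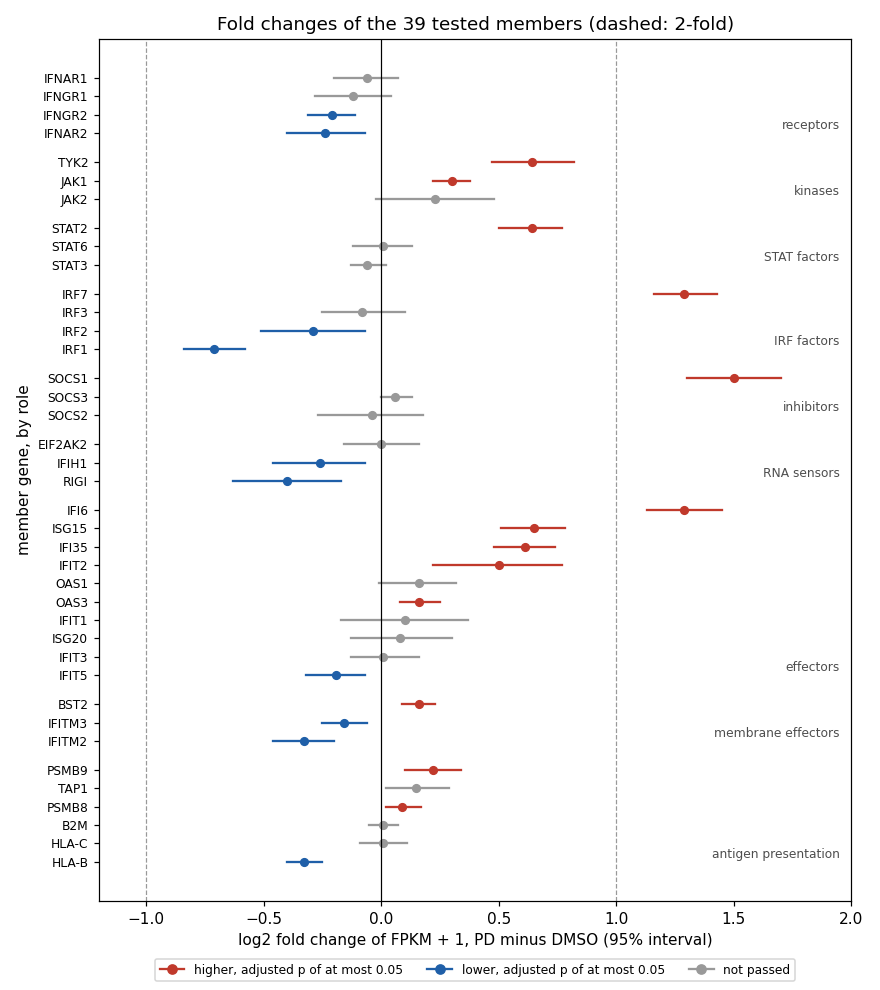
Log2 fold change of FPKM + 1 (PD minus DMSO, x axis) with its 95% interval for the 39 tested members (y axis), grouped by role, in red where higher, blue where lower and grey where the adjusted p was over 0.05. SOCS1, IRF7 and IFI6 lie beyond the dashed 2-fold line, and IRF1 is the lowest at -0.71.

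The receptor chains were slightly lower or did not pass the test. IFNAR1, which binds type I interferons together with IFNAR2, had the highest level of the 4, with 15.8, 16.9 and 15.2 FPKM in DMSO and 16.3, 14.7 and 14.7 FPKM in PD. These values overlap, and the log2 fold change was -0.06 (95% interval -0.20 to 0.07, adjusted p 0.37, limma). IFNAR2, the chain that with IFNAR1 completes this receptor, went from 5.47 ± 0.405 to 4.49 ± 0.354 FPKM, a log2 fold change of -0.24 with an adjusted p of 0.024 (limma). Its call was lost when either of DMSO replicates 1 and 2 or of PD replicates 2 and 3 was left out, with adjusted p of 0.057 to 0.077. IFNGR2, the signalling chain of the type II receptor, fell from 13.5 ± 0.532 to 11.6 ± 0.218 FPKM, a log2 fold change of -0.21 with an adjusted p of 0.0044 (limma). Its partner IFNGR1 had 12.3 FPKM in DMSO and 11.2 FPKM in PD and did not pass (adjusted p 0.17, limma). IFNAR1, IFNAR2 and IFNGR2 lie within 274.1 kb of each other on chromosome 21 (GRCh38, 33205282 to 33479348), and exons of each overlap those of another annotated gene, so that fragments there are less certain.

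Of the kinases that sit on these receptors, JAK1 and TYK2 rose and JAK2 did not pass. JAK1, which serves both receptor types, had the highest level, with 33.7, 32.8 and 34.1 FPKM in DMSO and 41.4, 40.3 and 42.5 FPKM in PD. All 3 PD libraries were above all 3 DMSO libraries, and the log2 fold change was 0.30 (SE 0.03, adjusted p 0.00027, limma). Exons of LINC01359 on the same strand and of RAVER2 on the opposite strand overlap those of JAK1. TYK2, the kinase bound to IFNAR1, had 10.3, 10.8 and 12.4 FPKM in DMSO and 16.9, 18.8 and 18.3 FPKM in PD. The groups were apart here as well, by a log2 fold change of 0.64 (SE 0.07, adjusted p 0.00025, limma), and no other annotated gene overlaps its exons. JAK2, the partner of JAK1 in type II signalling, had much lower levels, 1.83 ± 0.362 FPKM in DMSO and 2.30 ± 0.222 FPKM in PD. Its change of 0.23 on the log2 scale did not pass (adjusted p 0.10, limma), but was called by voom on fragments (log2 fold change 0.35, adjusted p 0.019) and without DMSO replicate 2 (0.33, adjusted p 0.022).

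Of the STAT factors, STAT2 was the member that rose. STAT2, the STAT protein of type I signalling (chromosome 12, 56341597 to 56360203), had 4.68, 4.18 and 4.67 FPKM in DMSO and 7.37, 7.41 and 7.94 FPKM in PD. The lowest PD library was above the highest DMSO library, and the log2 fold change was 0.64 (SE 0.06, adjusted p 8.1e-05, limma). STAT3, which carries the signal of interleukin 6 and related cytokines, had the highest level of the 3, with 23.3, 23.6 and 24.3 FPKM in DMSO and 23.0, 22.5 and 22.8 FPKM in PD. The PD libraries were just below the DMSO libraries, with a log2 fold change of -0.06 (95% interval -0.13 to 0.02, adjusted p 0.19, limma), although upper-quartile scaling called it (-0.10, adjusted p 0.041). STAT6, which acts downstream of interleukin 4, had 17.1 FPKM in both groups. IRF9, the DNA-binding partner of STAT2, was under the filter, with 0.061 to 0.247 FPKM in any library. Exons of other annotated genes on both strands overlap those of IRF9, so its fragments are less certain.

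Of the 4 interferon regulatory factors (IRFs) tested, IRF7 rose, IRF1 and IRF2 fell and IRF3 did not pass. IRF7, a factor that drives the genes of type I interferons and is itself induced by interferon, lies on chromosome 11 from 612553 to 615983 and rose 2.71-fold in mean FPKM. It had 5.00, 5.90 and 5.38 FPKM in DMSO and 14.7, 15.0 and 14.5 FPKM in PD, a log2 fold change of 1.29 (SE 0.06, adjusted p 5.4e-06, limma). No exon of another gene overlaps it, and the groups were far apart. IRF1, an activator of antiviral and antigen presentation genes, went down. IRF1 had 6.0, 6.30 and 5.99 FPKM in DMSO and 3.10, 3.49 and 3.43 FPKM in PD, a log2 fold change of -0.71 (SE 0.06, adjusted p 4.4e-05, limma), and the antisense gene IRF1-AS1 overlaps its exons. IRF2, a factor that can oppose IRF1, was lower by -0.29 on the log2 scale (adjusted p 0.03, limma), and this call was lost without DMSO replicate 2 (adjusted p 0.094), PD replicate 1 (0.077) or PD replicate 2 (0.094). IRF3, which is activated by RNA sensing, had 10.5, 10.4 and 12.8 FPKM in DMSO and 10.6, 10.4 and 10.7 FPKM in PD, and these overlap (log2 fold change -0.08, 95% interval -0.25 to 0.10, adjusted p 0.42, limma). In DMSO the order of mean levels was therefore IRF3 (11.3 FPKM), IRF1 (6.09), IRF7 (5.43) and IRF2 (4.14). In PD it was IRF7 (14.7 FPKM), IRF3 (10.6), IRF1 (3.34) and IRF2 (3.21), with IRF1 and IRF2 within the spread of their libraries.

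Among the inhibitors, SOCS1 rose, with the largest change of all tested members on the FPKM + 1 scale and with voom. SOCS1, which binds and blocks the JAK kinases (chromosome 16, 11254417 to 11256204), had 0.284, 0.341 and 0.429 FPKM in DMSO and 2.80, 3.03 and 2.60 FPKM in PD. Behind these values were 6, 7 and 9 fragments in DMSO and 62, 65 and 52 fragments in PD, so the size of the fold is imprecise but the groups are far apart. The log2 fold change on FPKM + 1 was 1.5 (SE 0.09, adjusted p 1.2e-05, limma). It was 2.70 with a pseudocount of 0.1 and 2.94 (SE 0.32) with voom on fragments. SOCS3, the family member that dampens STAT3 signalling, had a far higher level, with 42.0, 43.0 and 41.5 FPKM in DMSO and 44.3, 44 and 44.2 FPKM in PD. All PD libraries were above the DMSO libraries, but the difference of 0.06 on the log2 scale did not pass (95% interval 0.00 to 0.13, adjusted p 0.093, limma). SOCS2, which acts mainly on growth hormone signalling, had 0.679 FPKM in DMSO and 0.627 FPKM in PD (adjusted p 0.72, limma).

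**Figure D2:**
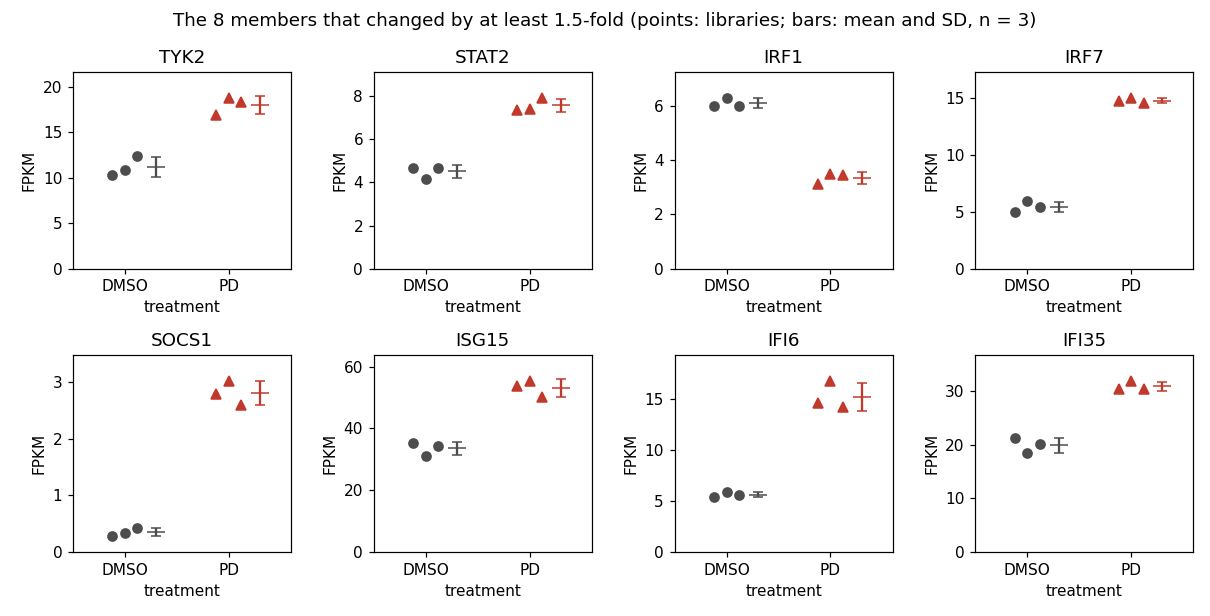
FPKM (y axis, from 0) of the 8 members that changed by at least 1.5-fold on the FPKM + 1 scale, in DMSO and PD (x axis), with 1 point per library and the mean and SD (n = 3) beside them. In each of the 8 genes the libraries of the treatments are apart, and IRF1 is the member that is lower in PD.

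The RNA sensors RIGI and IFIH1 were lower in PD, while EIF2AK2 was not. RIGI, which recognises short viral RNA, had 2.05, 1.88 and 1.49 FPKM in DMSO and 1.22, 1.05 and 1.10 FPKM in PD. The groups were apart, but exons of ENSG00000288684 on the same strand overlap those of RIGI, so its fragments are less certain. The log2 fold change was -0.40 (adjusted p 0.0096, limma) and -0.67 with voom on fragments. IFIH1, which recognises long RNA duplexes, fell from 1.90 ± 0.0999 to 1.41 ± 0.181 FPKM, a log2 fold change of -0.26 (adjusted p 0.026, limma) and of -0.43 with voom. Its call was lost without DMSO replicate 2 (adjusted p 0.068), DMSO replicate 3 (0.075), PD replicate 2 (0.083) or PD replicate 3 (0.072). EIF2AK2, a kinase that halts translation when it binds RNA duplexes, had the highest level of these genes, with 12.5, 13.6 and 11.3 FPKM in DMSO and 12.6, 12.7 and 11.9 FPKM in PD. These overlap throughout, and the 95% interval of the log2 fold change was -0.16 to 0.16.

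Of the 14 antiviral effectors, 10 were tested, with 5 higher, 1 lower and 4 that did not pass. The share called, 60%, was close to the 58.1% of all tested genes. IFI6, a small protein of the mitochondrial and ER membranes (chromosome 1, 27666064 to 27672212), had 5.42, 5.86 and 5.54 FPKM in DMSO and 14.6, 16.8 and 14.2 FPKM in PD. This is a 2.71-fold higher mean FPKM and a log2 fold change of 1.29 (SE 0.07, adjusted p 8.5e-06, limma), although exons of LINC02574 on the same strand overlap it. ISG15, a ubiquitin-like protein that is linked to other proteins, had the highest level of the effectors, with 35.1, 31.1 and 34.3 FPKM in DMSO and 53.8, 55.4 and 50 FPKM in PD. Every PD library was above every DMSO library, by a log2 fold change of 0.65 (SE 0.06, adjusted p 7.2e-05, limma), and a gene on the opposite strand overlaps its exons. IFI35, a binding partner of other interferon-induced proteins, had 21.3, 18.5 and 20.1 FPKM in DMSO and 30.5, 32.0 and 30.4 FPKM in PD. It rose by 0.61 on the log2 scale (SE 0.05, adjusted p 7.9e-05, limma), and no other gene overlaps its exons.

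The 4 IFIT genes, whose proteins bind foreign RNA, lie together on chromosome 10 (89283694 to 89421605, 137.9 kb) and did not move as a block. IFIT2 rose from 1.75 ± 0.400 to 2.86 ± 0.286 FPKM, a log2 fold change of 0.50 (adjusted p 0.0088, limma). Exons of ENSG00000232110 on the same strand and of LIPA on the opposite strand overlap those of IFIT2, so its fragments are less certain. IFIT5 fell from 9.37 ± 0.615 to 8.07 ± 0.092 FPKM, a log2 fold change of -0.19 (adjusted p 0.017, limma), a call that was lost without PD replicate 3 (adjusted p 0.053). IFIT3, at 4.40 FPKM in DMSO and 4.45 FPKM in PD, and IFIT1, at 0.681 and 0.797 FPKM, did not pass, with 95% intervals of the log2 fold change of -0.13 to 0.16 and -0.17 to 0.37. The OAS genes, whose enzymes make a messenger that activates RNA decay, lie within 105.9 kb on chromosome 12 and had very unequal levels. OAS3 rose from 28.0 ± 0.934 to 31.5 ± 0.595 FPKM, which is 0.16 on the log2 scale (adjusted p 0.0066, limma). OAS1 had 6.02 FPKM in DMSO and 6.83 FPKM in PD (adjusted p 0.089, limma), and was called without PD replicate 1 (log2 fold change 0.22, adjusted p 0.023). OAS2 had at most 2 fragments in any library. ISG20, an exonuclease that degrades RNA, had 1.18 FPKM in DMSO and 1.30 FPKM in PD (adjusted p 0.46, limma).

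Of the membrane proteins that block viral entry or release, BST2 was higher, IFITM2 and IFITM3 were lower, and IFITM1 was under the filter. BST2, which tethers budding virus particles, had 171, 166 and 177 FPKM in DMSO and 188, 192 and 193 FPKM in PD. The PD libraries were all above the DMSO libraries, by 0.16 on the log2 scale (SE 0.03, adjusted p 0.0037, limma). IFITM3, which hinders the fusion of viruses with endosomes, fell from 113 ± 5.73 to 102 ± 2.33 FPKM, a log2 fold change of -0.16 (adjusted p 0.014, limma), a call that was lost without PD replicate 3 (adjusted p 0.053). Its neighbour IFITM2 fell from 31.9 ± 2.1 to 25.2 ± 1.14 FPKM, a log2 fold change of -0.33 (adjusted p 0.0018, limma). The IFITM genes lie within 25.8 kb on chromosome 11 and have similar sequences, so reads may have been shared among them.

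Genes of antigen presentation were well expressed, and their changes were small. B2M, the light chain of class I molecules, had the highest level of all 46 members, with 252, 262 and 259 FPKM in DMSO and 259, 260 and 259 FPKM in PD. The groups overlap, and the 95% interval of the log2 fold change was -0.05 to 0.07. Of the heavy chains, HLA-B fell from 78.2 ± 2.40 to 62.2 ± 1.13 FPKM, a log2 fold change of -0.33 (adjusted p 0.00014, limma). HLA-C had 67.0 FPKM in DMSO and 67.4 FPKM in PD (95% interval of the log2 fold change -0.09 to 0.11). The HLA genes are nearly identical in parts and differ between genomes, so their fragments are less certain. PSMB9, a subunit of the immunoproteasome that cuts peptides for these molecules, rose from 15.2 ± 0.971 to 17.8 ± 0.395 FPKM, a log2 fold change of 0.22 (adjusted p 0.0081, limma). PSMB8, another such subunit, was higher by 0.09 on the log2 scale (adjusted p 0.035, limma), and its call was lost with voom (adjusted p 0.12), in the alternative scalings (0.11 and 0.24), and when any library other than DMSO replicate 3 was left out (adjusted p 0.059 to 0.1). TAP1, which pumps the peptides into the ER, had 27.4 FPKM in DMSO and 30.5 FPKM in PD and just missed the threshold (adjusted p 0.053, limma), while voom (adjusted p 0.013) and the fit without DMSO replicate 3 (0.031) called it. PSMB8, PSMB9 and TAP1 lie within 19.1 kb on chromosome 6, where exons of each overlap another gene.

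**Figure D3:**
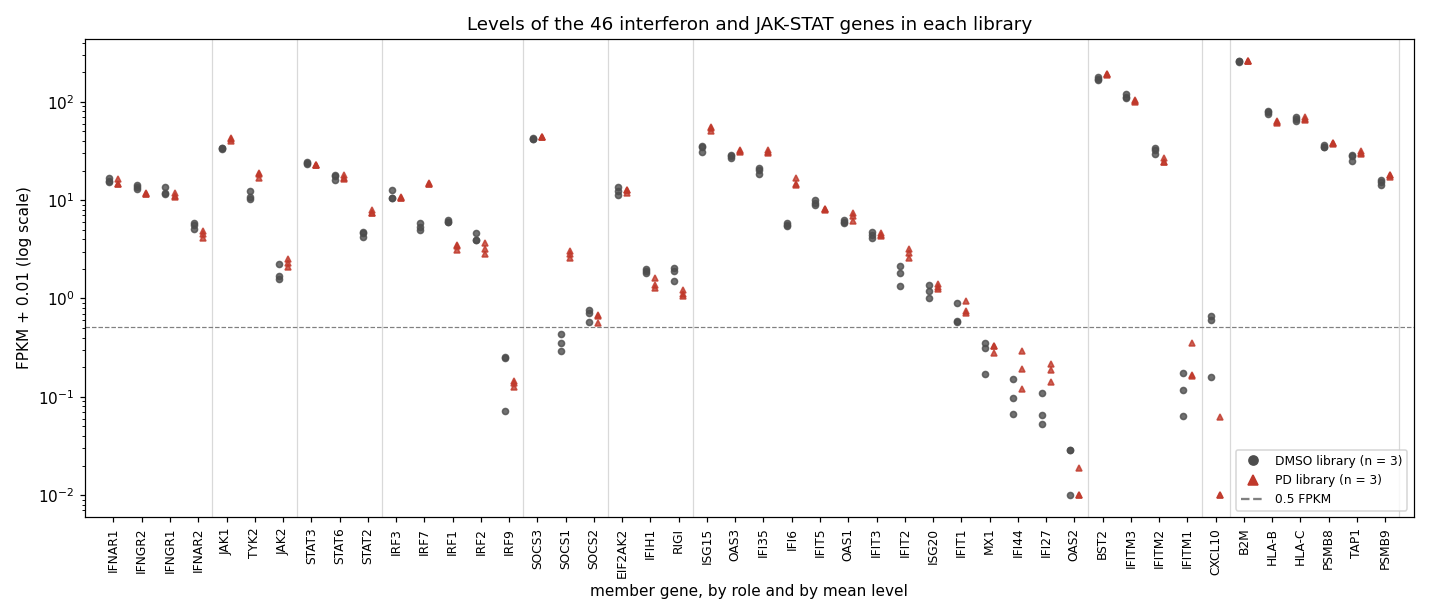
FPKM + 0.01 on a log scale (y axis) of all 46 members (x axis), grouped by role and ordered by mean level, with 1 circle per DMSO library and 1 triangle per PD library. B2M and BST2 are the highest, and IRF9, MX1, IFI44, IFI27, OAS2, IFITM1 and CXCL10 have means under the dashed line at 0.5 FPKM.

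For 7 members the mean was under 0.5 FPKM, and their fragments were summed over the 3 libraries of each group. The intervals given are exact 95% binomial intervals of the ratio of fragments per library total, which cover counting error only. CXCL10, a chemokine that attracts T cells, had 0.591, 0.659 and 0.149 FPKM in DMSO and 0, 0 and 0.0521 FPKM in PD. These come from 12, 13 and 3 fragments in DMSO and 0, 0 and 1 in PD, a ratio of 0.0352 with an interval of 0.000861 to 0.213. IFI27, a mitochondrial protein and one of the genes most responsive to type I interferon, had 14 fragments in DMSO and 37 in PD, a ratio of 2.6 with an interval of 1.38 to 5.21, and voom called it as higher (log2 fold change 1.34, adjusted p 0.011). MX1, a GTPase that traps viral components, had 59 and 68 fragments, a ratio of 1.14 with an interval of 0.789 to 1.64. The intervals of IRF9 (0.404 to 1.21), IFI44 (0.88 to 4.71), IFITM1 (0.684 to 6.4) and OAS2 (0.005 to 2.49) include 1, so no difference was detectable from these few fragments. In bulk RNA, a lower level in each cell and fewer cells that express the gene cannot be told apart.

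The promoters of the members were searched for the letters of the elements that interferon signalling uses. RefSeq promoters on GRCh38.p14, 250 bases before to 50 bases after the start of a gene, were given for 38 of the 46 members. The members without a promoter were IRF7 and IFIT2, which were higher, and IFNAR2, IRF2 and IFITM2, which were lower. IRF3 and SOCS2, which did not pass, and OAS2, which was under the filter, had none either. The counts below leave these members out. The core of the ISRE was searched as GAAA and GAAA with any pair of bases between them, or TTTC and TTTC for the other strand, and the GAS as TTCNNNGAA, which reads the same on both strands. The ISRE core was found in 19 of the 38 members (50%), with 1 promoter read per member, and in 3.57% of 35116 promoters overall. The shares over all promoters count promoter entries rather than genes. It was in 5 of 11 promoters of members that were higher, in 3 of 7 of those that were lower, in 6 of 14 of those that did not pass and in 5 of 6 of those under the filter. The GAS letters were in 7 of 38 (18.4%), beside 7.66% of all promoters. The sequences below show the ISRE core in capitals in promoters of members with different outcomes. SOCS1, ISG15 and IFI6 were higher, IFIT1 and IFIT3 did not pass, and IFITM3 was lower. Each runs 5′ to 3′ on the strand of the gene, from position -160 to -81 before the start, or from -80 to -1 for IFITM3. They lie at chr16:11256285-11256364 on the minus strand (SOCS1, inside an intron of RMI2), chr1:1013337-1013416 on the plus strand (ISG15, in an intron of a longer ISG15 transcript), chr1:27672273-27672352 on the minus strand (IFI6, in an intron of ENSG00000225886), chr10:89392463-89392542 on the plus strand (IFIT1, in an intron of LIPA), chr10:89327837-89327916 on the plus strand (IFIT3, in introns of IFIT3 and LIPA) and chr11:320861-320940 on the minus strand (IFITM3, in introns of a longer IFITM3 transcript and of ENSG00000251661).
SOCS1: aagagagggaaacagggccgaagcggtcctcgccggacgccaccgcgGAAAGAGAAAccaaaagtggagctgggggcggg
ISG15: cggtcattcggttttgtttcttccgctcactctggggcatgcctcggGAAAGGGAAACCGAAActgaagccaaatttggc
IFI6: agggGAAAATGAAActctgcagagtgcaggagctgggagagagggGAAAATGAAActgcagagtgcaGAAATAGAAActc
IFIT1: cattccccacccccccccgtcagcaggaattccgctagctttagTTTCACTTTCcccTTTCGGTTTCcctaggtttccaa
IFIT3: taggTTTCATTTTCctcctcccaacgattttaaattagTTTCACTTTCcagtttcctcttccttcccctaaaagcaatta
IFITM3: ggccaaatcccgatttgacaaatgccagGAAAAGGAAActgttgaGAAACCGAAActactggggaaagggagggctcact
In ISG15 a pair of matches overlaps, so its capitals run on, and in IFIT1 and IFIT3 the matches are on the opposite strand. IFI6 has 3 matches in the window shown, and SOCS1 has 1. A match shows only that the letters are present, and the same core stands in promoters of members that rose, fell or did not pass.

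The other genes of the pathway were read from the same fit. Of 115 genes listed, 104 were analysed and 82 tested, and 52 of these (63.4%) passed an adjusted p of 0.05 in limma, 33 higher and 19 lower, beside 58.1% of all tested genes. Their median log2 fold change was 0.08. At 2-fold, 4 genes (4.88%) were called, all of them higher, beside 3.61% of all tested genes. With voom on fragments, 8 higher and 2 lower genes of 87 were called at 2-fold (11.5%), the same share as over all genes tested that way (11.5%). HELZ2, an interferon-induced helicase, rose from 2.53 ± 0.243 to 8.17 ± 0.412 FPKM (log2 fold change 1.38, adjusted p 6.5e-06, limma). SAMHD1, which lowers the nucleotide pool that viruses need, rose from 6.40 ± 0.522 to 16.1 ± 0.943 FPKM (log2 fold change 1.21, adjusted p 9.7e-06, limma), and a gene on the opposite strand overlaps its exons. USP18, which removes ISG15 from proteins and inhibits the receptor chain IFNAR2, has a close relative in the genome that may share reads, and rose from 5.22 ± 0.432 to 11.9 ± 1.31 FPKM (log2 fold change 1.05, adjusted p 4.8e-05, limma). CALR, a chaperone of the ER that helps to load class I molecules, rose from 136 ± 3.90 to 306 ± 4.56 FPKM (log2 fold change 1.16, adjusted p 1.4e-06, limma).

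By group, 6 of 8 other receptor chains were higher and 2 lower, with IL4R at 0.60 and LIFR at -0.29 on the log2 scale of FPKM + 1. IFNLR1, a receptor chain of type III interferons, stood at 0.46 on that scale and at 0.82 with voom, where IL4R stood at 0.70. Of 4 other kinases and STAT factors tested, 2 were higher and 2 lower, with JAK3 at 0.32 and STAT5A at -0.87. With voom these stood at 0.85 and -0.92. STAT5A, which carries growth hormone and cytokine signals, fell from 28.8 ± 0.796 to 15.3 ± 0.149 FPKM. Among 3 other IRF genes, 2 were higher, with IRF5 at 0.91. IRF5 went from 0.572 FPKM in DMSO to 1.96 FPKM in PD and stood at 1.77 with voom, which is past 2-fold. Of 14 other inhibitors, 4 were higher and 5 lower, with the phosphatase gene PTPN11 at -0.58. In the group of nucleic acid sensing, 3 of 7 were lower and 4 did not pass, and IKBKE, a kinase that activates IRF3 and IRF7, fell from 10.5 ± 0.208 to 4.88 ± 0.431 FPKM (log2 fold change -0.97, adjusted p 1.8e-05, limma). The 33 other induced genes had 15 higher and 5 lower, from HELZ2 to PARP14 (-0.57). GBP1, an interferon-induced GTPase of this list, was under the filter and is named after its values were seen. It had 45, 28 and 25 fragments in DMSO and 2, 3 and 1 in PD, and voom called it as lower (log2 fold change -3.79, adjusted p 6.7e-07). Of 13 other genes of antigen presentation, 4 were higher and 2 lower, from CALR to HLA-F (-0.59). The share called was 42.9% in sensing, 46.2% in antigen presentation, 60.6% in induced genes, 64.3% in inhibitors and 66.7% in IRF genes. It was 100% in the small groups of receptor chains and of kinases and STAT factors, beside 58.1% of all tested genes. Of 7 interferon genes listed, 2 were analysed, with IFNB1 at 0 FPKM in 5 of the 6 libraries and at most 0.0644 FPKM, and IFNE at most 0.271 FPKM.

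**Figure D4:**
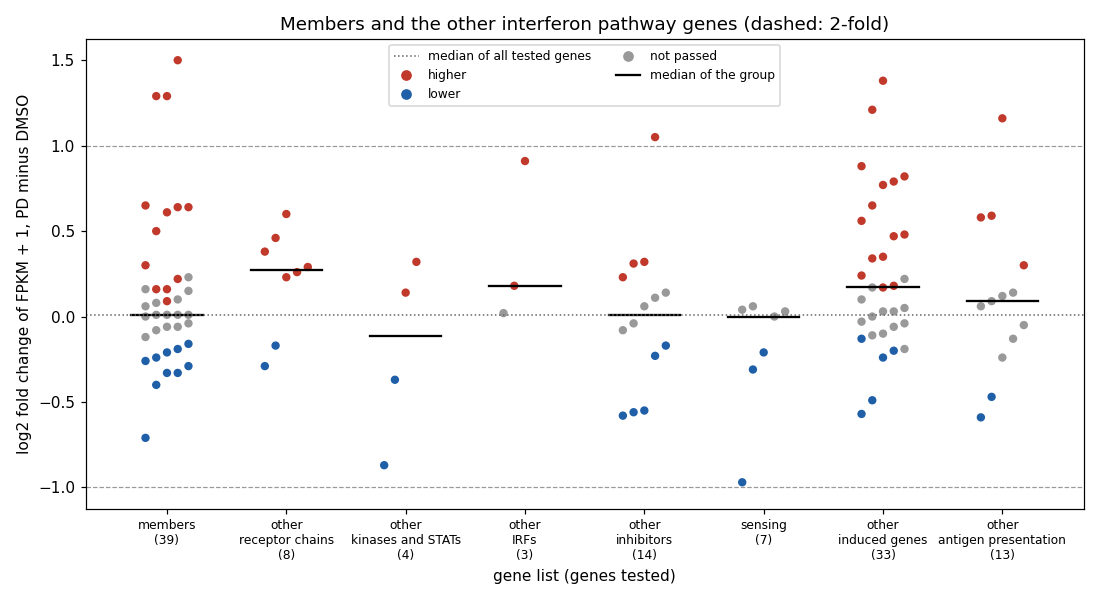
Log2 fold change of FPKM + 1 (PD minus DMSO, y axis) of the 39 tested members and of the 82 other pathway genes by group (x axis), with 1 point per gene, the median of each group as a black line and the median of all tested genes (0.01) as a dotted line. The members hold genes on both sides of 0, and HELZ2 at 1.38 and IKBKE at -0.97 mark the ends among the other genes.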

How the data were processed

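RNA of 6 libraries, 3 PD and 3 DMSO, was measured, with groups and replicate numbers taken from the sample titles. Poly(A) libraries were made with the NEBNext Ultra kit. The FPKM values that the authors deposited, 1 table for all libraries, came from paired-end reads aligned to hg38 with HISAT2 and counted on genes with HTSeq 0.6.0 (submitters' processing notes); the annotation and strand setting are not given in the sources used here, so overlapping genes are less certain. Symbols and positions are from GENCODE release 44, in which exons of 24 of the 46 members overlap those of another gene. Such overlaps are named above for some of these members only. FPKM are whole multiples of what 1 fragment is worth, which gave the fragments and library totals (tolerance 0.01 fragments). limma 3.58.1 in R 4.3.3 was fitted to log2(FPKM + 1) without covariates, with an intensity-dependent prior variance, a minimum mean of 0.5 FPKM and Benjamini-Hochberg adjustment over all genes tested. Intervals used scipy 1.17.1. The fits were tested on simulated data, with changes past 2-fold in genes well above the filter, so smaller changes and genes near the filter were not covered. The members and lists were chosen with earlier results of these data known. All members are named, and values in every library are given for those past 1.5-fold on the FPKM + 1 scale and for the highest of each role. They are also given for those under the filter that reach 0.5 FPKM in a library, with RIGI added after its values were seen. Of the other pathway genes, those past 2-fold and the largest rise and fall of a group are named, as far as they passed. IFNB1, IFNE, GBP1 and IFNLR1 were named after their values were seen. Alternatives were a pseudocount of 0.1, no filter, median-of-ratios and upper-quartile scaling, limma voom on fragments (at least 10 in 3 libraries), a replicate block and leaving out each library.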

Additional observations from a re-analysis of the deposited data

How the results depend on the processing

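The count of members called as higher stayed between 12 and 14 when each library was left out, and that of lower members between 6 and 9, where the 6 came without PD replicate 3. Of the 23 called members, 23 kept direction and call with a pseudocount of 0.1, 22 with voom and with either scaling, and 20 without a filter. The 2-fold threshold depended on low values. It called 3 members with a pseudocount of 0.1 and 4 with voom, all of them higher. With a pseudocount of 0.1, 8 other pathway genes were higher and 1 lower, and 698 and 550 of all genes; with voom the counts were 8 and 2, and 1010 and 724. Upper-quartile scaling called 1 other pathway gene as lower at 2-fold, and leaving out a library called 3 to 4 higher and 0 to 1 lower. Changes near 0 turned sign in the median-of-ratios and upper-quartile scalings for STAT6 (-0.02 and -0.04), IFIT3 (-0.01 and -0.02), B2M (-0.01 and -0.04) and HLA-C (-0.02 and -0.04), none of them called. Without single libraries the log2 fold change ranged from -0.04 to 0.04 for STAT6, -0.12 to 0.01 for IRF3, -0.03 to 0.06 for IFIT3, -0.07 to 0.06 for EIF2AK2, -0.01 to 0.02 for B2M and -0.02 to 0.04 for HLA-C. Replicate numbers were not treated as pairs in the main fit. The deviations of same-numbered libraries correlated at -0.027, -0.00462 and 0.0898, beside -0.0835 to 0.0847 for libraries with different numbers. These correlations cannot show whether the dishes were handled in pairs. With the replicate block 12 members were higher and 8 lower, and IRF2, IFIH1 and PSMB8 lost the call. Low fragment counts limit the members under 0.5 FPKM and SOCS1 in DMSO.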
